A study of Mus musculus with 3 samples.

Results

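*Gabra2*, *Gabra3*, *Gabra5*, *Gabrb1*, *Gabrb2*, *Slc12a2* and *Slc12a5* were followed through single-cell RNA-seq of the P5 medial prefrontal cortex (mPFC). They are 7 of the 14933 genes in the table of filtered cells and were taken by symbol. The first 5 encode subunits of GABA-A receptors, and the last 2 encode transporters that set the chloride gradient those receptors use. tdTomato-positive cells were sorted by FACS from C57Bl6 mice, and the 3′ ends of their transcripts were counted on the 10X Chromium platform (Single Cell 3′ v2 chemistry), 1 library for each of 3 genotypes. The wild-type library was *Rbp4cre*::*tdTomato*, the heterozygous library *Tbr1*f/+::*Rbp4cre*::*tdTomato* and the homozygous library *Tbr1*f/f::*Rbp4cre*::*tdTomato*, so that all 3, controls included, carried *Rbp4-cre* and the tdTomato reporter. *Rbp4-cre* (Gensat KL100) is active in layer 5 projection neurons, where it removes *Tbr1* exons 2 and 3, which encode the T-box DNA-binding region. *Tbr1* encodes a T-box transcription factor of deep-layer cortical neurons. Whether a library came from 1 animal or from pooled animals is not given in the sources used here. With 1 library per genotype there is no replicate, and no test between genotypes was run.

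GABA-A receptors are pentamers, most often built of alpha, beta and gamma subunits, that open a chloride channel when GABA binds. The alpha subunit shapes affinity for GABA and where the receptor sits, and the beta subunits form part of the GABA binding site and carry signals for trafficking. NKCC1, encoded by *Slc12a2*, brings chloride into cells, and KCC2, encoded by *Slc12a5*, moves it out of neurons. During postnatal development cortical neurons gain KCC2, and GABA turns from a depolarizing to a hyperpolarizing transmitter.

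By the GENCODE vM21 annotation of GRCm38, *Gabra2* lies at chr5:70957597-71095849 on the minus strand, and *Gabrb1* lies on the same chromosome at chr5:71658113-72149037 on the plus strand, where it overlaps *Gabra4* on the other strand. *Gabra5* lies at chr7:57407672-57510059 on the minus strand. *Gabra3* lies at chrX:72432681-72656848 on the minus strand, *Gabrb2* at chr11:42419757-42629028 on the plus strand and *Slc12a5* at chr2:164960802-164999731 on the plus strand. The 3′ kit keeps the strand of a read, so opposite-strand overlaps can be told apart in counting.

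The 250 bases before the annotated start are shown for the 3 genes with the largest log2 ratios between the genotypes among those at 10 CPM or more, because the deletion removes the DNA-binding region of a T-box factor, on 1 allele in the heterozygous and both in the homozygous cells. Sequences are from RefSeq GRCm38.p6, written 5′ to 3′ on the strand of the gene, and capitals mark the T-box core AGGTGT or its reverse complement ACACCT.
Gabra2, chr5:71095850-71096099, minus strand: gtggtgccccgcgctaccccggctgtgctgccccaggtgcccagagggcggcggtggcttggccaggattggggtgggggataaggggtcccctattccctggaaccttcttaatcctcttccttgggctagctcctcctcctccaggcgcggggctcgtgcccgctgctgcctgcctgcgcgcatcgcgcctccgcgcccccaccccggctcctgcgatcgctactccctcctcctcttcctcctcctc
Gabra5, chr7:57510060-57510309, minus strand: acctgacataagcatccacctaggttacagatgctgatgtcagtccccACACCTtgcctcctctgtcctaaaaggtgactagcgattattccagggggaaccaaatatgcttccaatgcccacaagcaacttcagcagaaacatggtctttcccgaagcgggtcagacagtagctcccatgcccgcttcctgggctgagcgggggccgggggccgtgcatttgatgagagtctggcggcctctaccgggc
Slc12a5, chr2:164960596-164960845, plus strand, first of 2 starts: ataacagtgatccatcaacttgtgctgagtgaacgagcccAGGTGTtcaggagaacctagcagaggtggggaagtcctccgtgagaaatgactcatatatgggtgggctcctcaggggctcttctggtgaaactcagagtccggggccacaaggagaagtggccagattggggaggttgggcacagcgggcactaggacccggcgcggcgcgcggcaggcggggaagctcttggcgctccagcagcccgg

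The *Gabra2* window, with a GC content of 70.0%, held no core. The *Gabra5* window held 1, beginning 202 bases before the start, and the first *Slc12a5* window held 1, beginning 210 bases before the start. The other *Slc12a5* start had none in its window. The 6 letters occur on either strand in 11.8% of 32851 windows of this length, so a match is common and describes only these letters.

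Cells were grouped by the lists of the authors. Typical neuronal cells are those of the neuronal table that the authors kept for their comparison of genotypes, atypical neuronal cells are the remaining cells of that table, and the other filtered cells lie outside it. The wild-type library had 1778 typical, 304 atypical and 2873 other cells, the heterozygous library 5357, 107 and 1398, and the homozygous library 3935, 462 and 1182. Between libraries 37 to 58 cell barcodes were shared by a pair. Typical cells held 3670646, 10418228 and 6074494 unique molecular identifiers (UMIs) in the order wild-type, heterozygous, homozygous, which is kept below, with medians of 1901, 1743 and 1375 UMIs per cell. UMIs were summed over the cells of a group and divided by the group's total to give CPM (UMIs per 1000000 UMIs of the group), and intervals are exact 95% intervals that cover counting error only. Since each UMI is 1 tagged 3′ end, CPM does not grow with transcript length, although capture can differ between genes.

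In typical cells excitatory neuron markers stood above the droplet background and inhibitory ones did not. Markers of excitatory neurons summed to 3034, 3698 and 4391 CPM in typical cells against 1849, 2567 and 2858 CPM in empty droplets (barcodes of 100 UMIs or more but under 500), and none of the 8 was at 0. The paper picked its neuronal clusters by *Nrgn*, *Rorb* and *Cnih2* and set atypical cells apart by lower *Neurod6* and *Nrgn*. All of these are on the excitatory list, and *Nrgn* alone gave 6210, 21478 and 16536 of its 11135, 38524 and 26675 UMIs. The excitatory excess over droplets is therefore no separate result. The 10 inhibitory neuron markers gave 600, 537 and 661 CPM in typical cells and 656, 790 and 672 CPM in empty droplets, none at 0, and at least 1 of their UMIs was found in 50.2, 44.0 and 41.2% of typical cells. Astrocyte markers gave 5927 to 6797 CPM in typical cells and 6333 to 6941 CPM in empty droplets. Endothelial markers gave 78.2, 14.6 and 31.1 CPM and blood markers 345, 44.6 and 85.8 CPM, highest in the wild-type library. *Tbr1* itself was at 27.5, 30.7 and 22.4 CPM, but its 3′ end lies outside the deleted exons, so that this level does not check the labels.

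*Gabra5* was the member with the highest level in typical cells of all 3 libraries, at 33.0 CPM (27.4 to 39.4, 121 UMIs) in wild-type, 43.8 CPM (39.8 to 48.0, 456 UMIs) in heterozygous and 39.7 CPM (34.8 to 45, 241 UMIs) in homozygous. Its product, the alpha5 subunit, is best known from extrasynaptic receptors of hippocampal and cortical pyramidal neurons. *Gabra2*, whose alpha2 subunit is common in the young forebrain and at the axon initial segment, was second at 15.8 CPM (12 to 20.4, 58 UMIs), 24.5 CPM (21.6 to 27.7, 255 UMIs) and 26.3 CPM (22.4 to 30.8, 160 UMIs). In each library the interval of *Gabra5* lay above that of *Gabra2*. *Gabra3*, an early alpha subunit, was at 5.99 CPM (22 UMIs), 6.91 CPM (72 UMIs) and 6.58 CPM (40 UMIs), below both of them in every library. Of the alpha subunit UMIs in typical cells, *Gabra5* took 46.5, 46.8 and 43.6% and *Gabra2* 22.3, 26.2 and 28.9%.

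Of the beta subunits, *Gabrb1* gave 13.1 CPM (9.64 to 17.3, 48 UMIs), 14.9 CPM (12.6 to 17.4, 155 UMIs) and 12.5 CPM (9.86 to 15.7, 76 UMIs), and these 3 intervals overlap. *Gabrb2*, the main beta subunit of the adult brain, was close to the limit of detection, with 2, 1 and 6 UMIs. The interval of its homozygous over heterozygous log2 ratio, 0.32 to 8.89, left out 0, but rests on 6 against 1 UMIs, and those over wild-type included 0.

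The cotransporters differed in level. *Slc12a5* was at 10.4 CPM (7.33 to 14.2, 38 UMIs), 12.7 CPM (10.6 to 15, 132 UMIs) and 17.0 CPM (13.8 to 20.6, 103 UMIs), whereas *Slc12a2* was at 5.18 CPM (3.12 to 8.08, 19 UMIs), 3.07 CPM (2.10 to 4.34, 32 UMIs) and 4.61 CPM (3.06 to 6.66, 28 UMIs). *Slc12a5* thus had the higher count in each library. *Slc12a2* is annotated at chr18:57878678-57946821 on the plus strand.

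**Figure D1:**
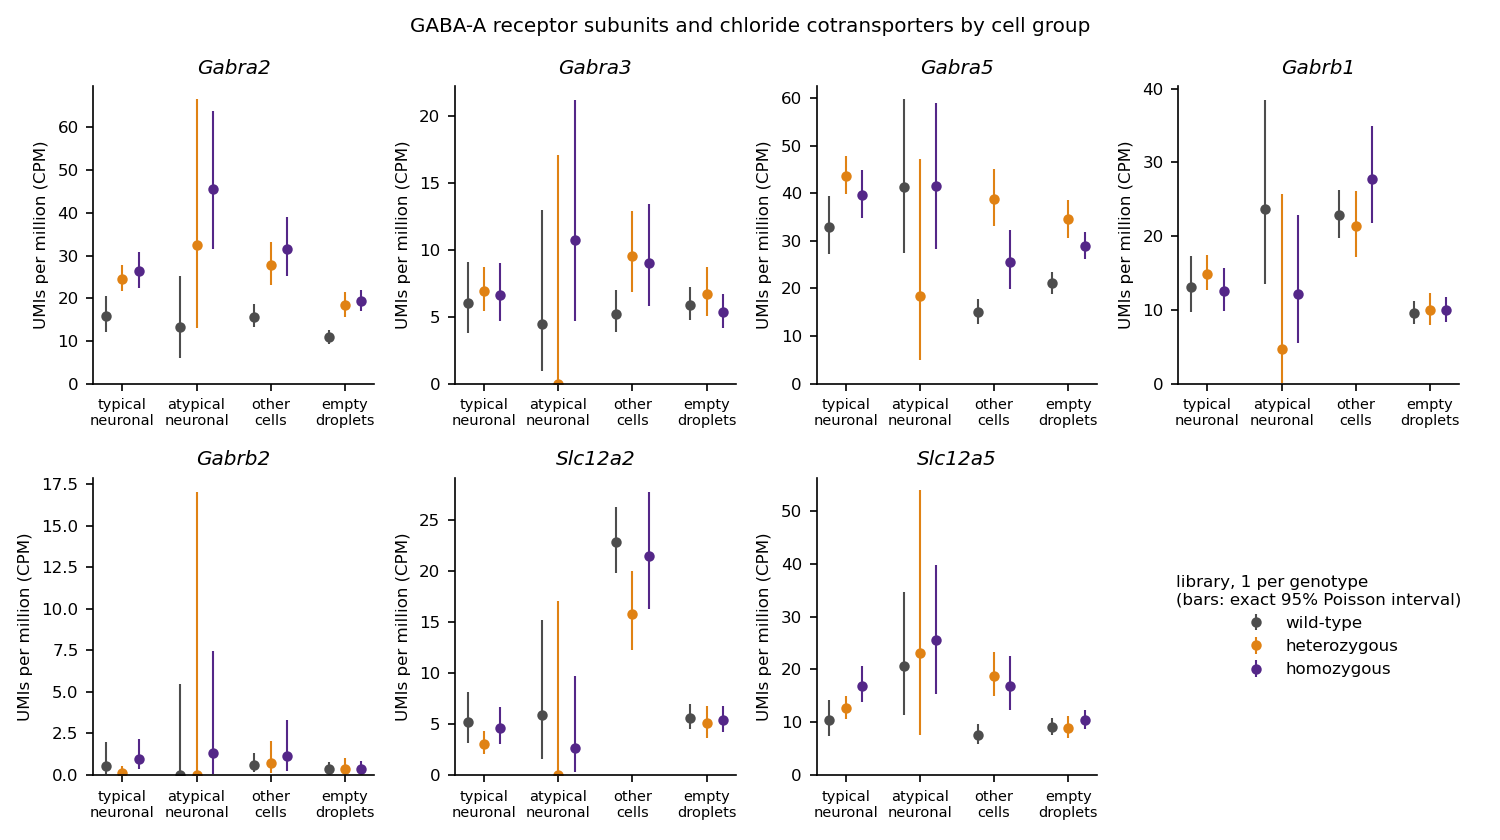
Level of the 7 genes in CPM (linear axes that differ between genes) in typical, atypical and other cells and in empty droplets of the wild-type, heterozygous and homozygous library, with exact 95% counting intervals. *Gabra5* and *Gabra2* lead in typical cells, *Slc12a2* stands higher in the other cells, and *Gabrb2* is near 0 in all groups.

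Most typical cells had no UMI of any of the 7 genes, namely 84.5, 81.9 and 85.1%, and only 1.18, 1.57 and 1.19% had UMIs of at least 2 of them. *Gabra5* was seen in 6.36, 8.01 and 5.79% of typical cells, or 3.26, 3.99 and 3.71% after each cell was thinned to 1000 UMIs. In cells with a microglial profile outside the neuronal table, which should lack the gene, 1.69% of 177 cells (up to 4.87% by the interval) had a *Gabra5* UMI at a median of 2495 UMIs. The same comparison gave 3.15, 4.54 and 3.96% of typical cells against 2.82% of microglia-like cells for *Gabra2*, and 2.14, 2.43 and 2.59% against 1.13% for *Slc12a5*. The *Gabra2* and *Slc12a5* shares of typical cells lie inside the intervals of the microglia-like shares, which reach 6.47 and 4.02%. These shares are not at equal depth, as typical cells had lower medians of 1901, 1743 and 1375 UMIs. Per UMI, *Gabra2* was at 9.81 CPM (3.18 to 22.9) in microglia-like cells, against 15.8, 24.5 and 26.3 CPM in typical cells. The values of both mutant libraries lay above that interval and the wild-type value inside it, but the interval sums the microglia-like cells of all libraries. By library these cells had 3.97 (0.10 to 22.1), 12.2 (1.48 to 44.2) and 21.1 CPM (2.55 to 76.1), on 1, 2 and 2 UMIs. Each typical-cell value lay inside the interval of its own library. *Slc12a2*, in contrast, was seen in 1.07, 0.597 and 0.712% of typical cells and in 16.9% of microglia-like cells.

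Free RNA gives UMIs in cells that do not express a gene, so levels in typical cells were compared with empty droplets of the same library. The largest share of free RNA was set by the non-neuronal marker list scarcest in typical cells relative to droplets. It was 22.5, 12.1 and 15.3% of typical-cell UMIs, by mural, endothelial and mural markers. How much of the level of a single member is free RNA was not tested. *Gabra2* was higher in typical cells by 0.55, 0.41 and 0.44 on the log2 scale and *Gabra5* by 0.64, 0.34 and 0.45, and the intervals of all 6 values left out 0. *Slc12a5* was higher by 0.19, 0.51 and 0.71, where the wild-type interval included 0. *Gabrb1* was higher by 0.45 (−0.05 to 0.94), 0.58 (0.19 to 0.98) and 0.33 (−0.09 to 0.75), of which the heterozygous interval alone left out 0. *Gabra3* was level with the droplets, at 5.99 against 5.87, 6.91 against 6.69 and 6.58 against 5.33 CPM. *Slc12a2* stood at 5.61, 5.05 and 5.40 CPM in empty droplets, no lower than in typical cells, and its log2 ratio of typical cells to droplets was −0.12, −0.72 and −0.23. The level of *Slc12a2* in typical cells was thus below that of the droplets in every library, with an interval that left out 0 in the heterozygous library.

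Of the 4 members with a mean of at least 10 CPM, *Gabra2* had the largest shift from wild-type in typical cells of both mutant libraries. For homozygous over wild-type *Slc12a5* was close to it, at 0.71 (0.16 to 1.29). The level of *Gabra2* was 15.8 CPM in the wild-type library and 24.5 and 26.3 CPM in the mutant libraries, a log2 ratio of 0.63 (0.22 to 1.07) for heterozygous and 0.74 (0.30 to 1.20) for homozygous over wild-type. Both mutant intervals lay above the wild-type interval, while the mutants differed from each other by 0.11. Empty droplets showed the same shift, with *Gabra2* at 10.8, 18.4 and 19.4 CPM and log2 ratios of 0.77 (0.44 to 1.10) and 0.84 (0.55 to 1.13). With the droplet profile subtracted, the ratios of typical cells were 0.55 and 0.68. Over 11 alternative settings the ratio ran from 0.52 to 0.68 for heterozygous and from 0.32 to 0.88 for homozygous over wild-type, where the lowest value came from raw UMIs averaged per cell.

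*Slc12a5* was lowest in the wild-type and highest in the homozygous library, and the wild-type and homozygous intervals overlapped only between 13.8 and 14.2 CPM. The log2 ratio was 0.29 (−0.24 to 0.85) for heterozygous over wild-type, 0.71 (0.16 to 1.29) for homozygous over wild-type and 0.42 (0.03 to 0.80) for homozygous over heterozygous. In empty droplets *Slc12a5* was at 9.08, 8.92 and 10.4 CPM, with log2 ratios of −0.02 and 0.19 (−0.16 to 0.54) over wild-type. The homozygous over wild-type ratio ranged from 0.29 to 0.91 over the alternatives. It was 0.29 both with raw UMIs per cell and without typical cells that held a UMI of a microglial, vascular, meningeal or blood marker, and 0.91 without those that held an inhibitory neuron marker UMI.

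*Gabra5* gave 0.41 (0.12 to 0.71) for heterozygous and 0.27 (−0.05 to 0.59) for homozygous over wild-type, beside 0.71 and 0.46 in empty droplets, so that the droplet ratios were the larger. With raw UMIs per cell the homozygous ratio of *Gabra5* turned to −0.15. Ratios of *Gabra3* and *Gabrb1* had intervals that included 0. The *Slc12a2* ratio was −0.75 (−1.62 to 0.15) for heterozygous and −0.17 for homozygous over wild-type, on 19 to 32 UMIs per library.

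In cells outside the neuronal table, whose mix of types differed between libraries, *Slc12a5*, *Gabra2* and *Gabra5* shifted in the same direction as in typical cells. *Gabrb1* did not, at −0.10 for heterozygous and 0.28 for homozygous over wild-type, against 0.19 and −0.06 in typical cells. *Gabra3* gave 0.86 and 0.79 outside the table, and *Slc12a2* −0.54 (−0.96 to −0.13) and −0.09. There *Slc12a5* gave 1.31 (0.83 to 1.81) for heterozygous and 1.16 (0.58 to 1.73) for homozygous over wild-type, *Gabra2* 0.83 and 1.01, and *Gabra5* 1.38 and 0.77, beside all-gene medians of −0.24 and −0.04. Within single clusters or classes of these cells, which are described further on, *Slc12a5* was at 70.0, 88.5 and 71.8 CPM in the *Npy* and *Sst* cluster, and *Gabra5* at 61.1, 52.6 and 39.1 CPM in excitatory neuron-like and 10.7, 9.41 and 12.4 CPM in astrocyte-like cells. The counting intervals of the 3 libraries overlapped in each of these. For *Gabra2* in astrocyte-like cells they did not, at 24.9 (18.0 to 33.7) in wild-type and 59.4 CPM (38.1 to 88.5) in homozygous. The inhibitory neuron-like class joins 2 clusters whose cell numbers differed between libraries. There *Slc12a5* was at 20.8 (14.3 to 29.3) in wild-type and 64.9 CPM (45.2 to 90.2) in heterozygous, and *Gabra5* at 27.2 (19.7 to 36.6) and 76.0 CPM (54.5 to 103).

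At a mean of at least 10 CPM, 4 of the 7 genes (*Gabra2*, *Gabra5*, *Gabrb1*, *Slc12a5*) could be read against all genes. In the heterozygous over wild-type comparison 1 of the 4 (*Gabra2*) was past 1.5-fold, where 7.73% of all genes at that level were. In the homozygous over wild-type comparison 2 of the 4 (*Gabra2*, *Slc12a5*) were, against 7.34% of all genes, and none was between the mutants, against 1.87%. Median log2 ratios over all genes were 0.05, 0.06 and 0.01 in these comparisons.

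**Figure D2:**
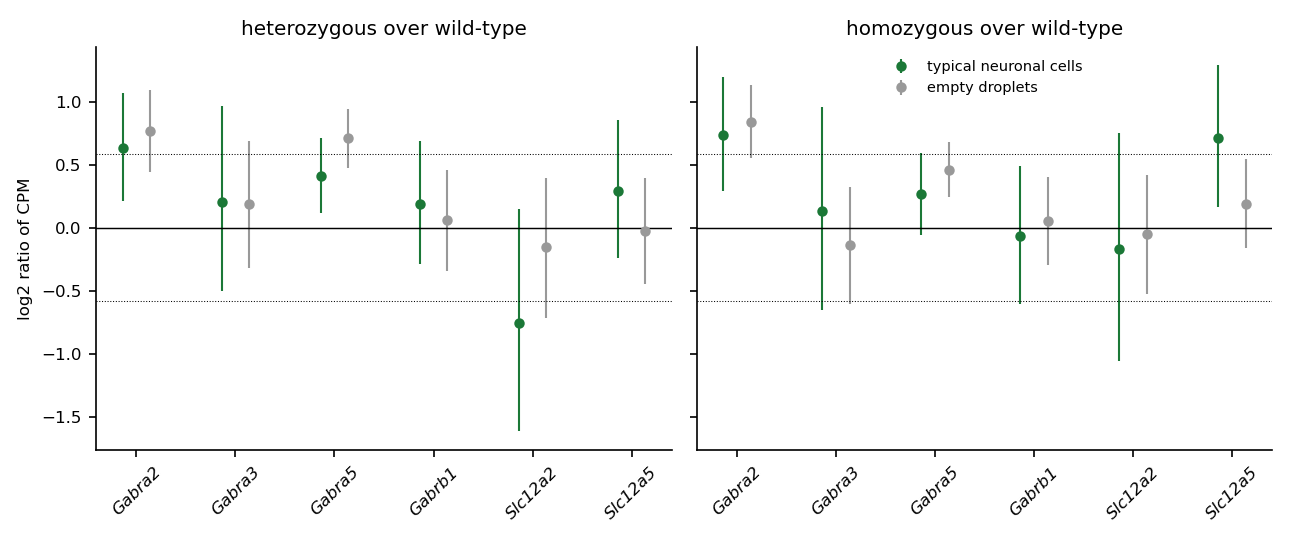
log2 ratio of CPM of 6 genes (*Gabrb2* is not drawn) in each mutant library over wild-type, in typical neuronal cells and in empty droplets, with exact 95% counting intervals and dotted lines at 1.5-fold. *Gabra2* is higher in both mutant libraries over wild-type in cells (0.63 and 0.74) and in droplets (0.77 and 0.84), whereas the *Slc12a5* ratio of the homozygous library is 0.71 in typical cells and 0.19 in droplets (and 1.16 in cells outside the neuronal table, not drawn).

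Both cotransporters were also compared by the ratio of *Slc12a5* to *Slc12a2* UMIs, which needs no scaling between libraries. In typical cells its denominator, *Slc12a2*, was no higher than in empty droplets, and how much of it is free RNA was not tested. The ratio there is therefore not read as a balance of transporters in the cells. Because the 2 transcripts can be captured with different efficiency, the ratio is compared between cells and not read against 1. It was 2.0 (1.12 to 3.67) in wild-type, 4.13 (2.79 to 6.28) in heterozygous and 3.68 (2.40 to 5.80) in homozygous typical cells, and 1.62, 1.77 and 1.92 in empty droplets. The ratio in mutants over wild-type was 1.04 (−0.02 to 2.08) for heterozygous and 0.88 (−0.22 to 1.95) for homozygous on the log2 scale, and both intervals include 0. Outside the neuronal table, where the mix of types differed between libraries, the ratio was 0.33, 1.19 and 0.79. Its contrasts there were 1.85 (1.20 to 2.50) and 1.26 (0.52 to 1.99), and both intervals left out 0. Several cell types outside the table had more *Slc12a2* than typical cells, and their marker UMIs were in more wild-type than mutant typical cells. These were mural (6.41, 2.65 and 2.47% of typical cells), microglial (9.4, 4.6 and 4.3%), oligodendrocyte lineage (51, 42 and 34%) and endothelial markers (14.3, 2.74 and 4.45%). Blood marker UMIs were in 36.8, 7.90 and 11.9% of typical cells. Leaving out cells with any microglial, vascular, meningeal or blood marker UMI kept 805 of 1778, 4402 of 5357 and 3074 of 3935 typical cells. The contrast of typical cells was then 0.46 for heterozygous and −0.26 for homozygous over wild-type, from no more than 19 wild-type *Slc12a2* UMIs. Without cells holding an inhibitory neuron marker UMI it was 0.28 and 0.38. The cause of these changes was not tested.

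Atypical neuronal cells were few, so that their summed UMIs were fewer and their values coarse, although a cell held more UMIs at the median (2039, 1865 and 1459). *Slc12a5* was at 20.7, 23.1 and 25.5 CPM there, on 14, 5 and 19 UMIs, and its log2 ratio to typical cells was 1.0, 0.87 and 0.59, where the wild-type interval alone left out 0. *Gabra2* in the homozygous library was at 45.6 CPM (34 UMIs) against 26.3 CPM in typical cells, a log2 ratio of 0.79 (0.21 to 1.33), and *Gabrb1* in the wild-type library at 23.7 CPM (16 UMIs) against 13.1 CPM, a ratio of 0.86 (−0.06 to 1.70). In the heterozygous library *Gabra3*, *Gabrb2* and *Slc12a2* had 0 UMIs of 216259 in atypical cells, which allows up to 13.9 CPM each at 3 counts and 17.1 CPM by the exact interval. Of the members at 10 CPM or more, 2 of 4, 2 of 3 and 2 of 4 were past 1.5-fold in either direction, where 26.5, 40.0 and 22.2% of all genes were. The 10 inhibitory neuron markers summed to 879, 490 and 711 CPM in atypical against 600, 537 and 661 CPM in typical cells. Within the list *Gad2*, which encodes a GABA-synthesizing enzyme, was at 75.5, 27.7 and 53.7 CPM against 18.5, 11.2 and 10.9 CPM, whereas *Lhx6*, a factor of interneurons, was at 2.96, 0 and 4.03 CPM against 6.54, 7.01 and 6.91 CPM. The 8 excitatory neuron markers summed to 1699, 3524 and 2591 CPM in atypical against 3034, 3698 and 4391 CPM in typical cells. *Neurod6*, an excitatory neuron factor, was at 50.3, 46.2 and 55.0 CPM in atypical and 201, 246 and 240 CPM in typical cells. The paper describes atypical cells by lower *Neurod6* and *Nrgn*, so this is no separate result. In the heterozygous library *Nrgn* was higher in atypical cells (2354 against 2062 CPM). *Bcl11b* was higher in all 3, at 183, 217 and 299 against 73.0, 59.0 and 76.4 CPM.

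Outside the neuronal table *Slc12a2* was the member that stood out. It was at 22.9 CPM (197 UMIs), 15.7 CPM (68 UMIs) and 21.4 CPM (57 UMIs), and its log2 ratio to typical cells was 2.14, 2.36 and 2.22 in the 3 libraries. The ratio was above the median of all genes in each, which was 0.62, 0.25 and 0.43. *Gabrb1* was higher by 0.81, 0.52 and 1.15, and *Gabra5* had log2 ratios of −1.14, −0.17 and −0.63. With TMM or DESeq2 factors, which lowered the ratios by more than that median, *Slc12a2* stayed higher by 1.37 to 1.91, while *Gabrb1* was higher by only 0.03 to 0.57. *Gabra2*, at −0.01, 0.18 and 0.26, turned to between −0.26 and −0.79 with these factors, and with raw UMIs per cell the heterozygous ratio of *Gabra5* turned to 0.50. The exact sign-flip permutation test over 3 libraries cannot give a two-sided p below 0.25, so the 3 positive ratios of *Slc12a2* were given no p. Of the members at level, 3 of 4, 0 of 4 and 3 of 5 were past 1.5-fold, against 61.0, 31.3 and 49.5% of all genes. In the wild-type and homozygous libraries the 3 were *Slc12a2* and *Gabrb1*, higher, and *Gabra5*, lower. In the heterozygous library *Slc12a2*, with a log2 ratio of 2.36, was not counted because its mean of 9.41 CPM was under 10. Since the mix of cell types outside the table differs between libraries, values for single cell types follow.

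These 5453 other cells were clustered with the 7 genes and their pathway lists left out, and a cluster was named where it had at least 3 markers of a type and its leading genes were not those of another type or of the cell cycle. Of 23 clusters 13 were named, 7 were not and 3 held under 50 cells. In several named clusters the markers were enriched but not among the 10 leading genes. *Slc12a2* was highest in cells with mural markers, 180 CPM (138 to 230, 62 UMIs, 138 cells), with 213 CPM in the wild-type, 109 CPM in the heterozygous and 149 CPM in the homozygous library. The log2 ratio of mural-like cells to the remaining cells outside the table was 3.54, 2.90 and 3.12. Microglia-like cells followed at 64.7 CPM (44.6 to 90.9), an interval below that of mural-like cells with the libraries summed, and 59.6, 61.2 and 84.3 CPM by library. The UMIs by library were 43, 6 and 13 in mural-like and 15, 10 and 8 in microglia-like cells. On these counts the intervals of the 2 classes overlapped in the heterozygous and homozygous libraries. Oligodendrocyte lineage-like cells held 37.8 CPM, of which the cluster led by *Enpp6* and *Mog* had 68.4 CPM (27 UMIs, 89 cells) and the *Pdgfra* cluster 15.1 CPM. Meningeal fibroblast-like cells had 32.7 CPM and endothelial-like cells 20.8 CPM, and the lowest level among the named non-neuronal cells was 12.3 CPM (8.38 to 17.5) in astrocyte-like cells. Excitatory neuron-like cells outside the table had 8.36 CPM (13 UMIs).

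*Gabrb1* was highest in 2 places. Astrocyte-like cells held 68.4 CPM (58.6 to 79.5, 172 UMIs, 901 cells), with 68.3, 77.6 and 59.4 CPM by library, up to 135 CPM (34 UMIs, 103 cells) in 1 of their 3 clusters, and a log2 ratio to the remaining cells of 2.53, 2.36 and 1.42. Another subunit of these cells, the gamma1 subunit gene *Gabrg1*, was at 72.0 CPM (181 UMIs) and *Gabra4* at 34.2 CPM. *Gabra2* was at 33.4 CPM there, with 24.9, 42.3 and 59.4 CPM by library. In the inhibitory neuron-like cluster led by *Npy* and *Sst*, *Gabrb1* was at 62.4 CPM (49.0 to 78.3), an interval that overlaps that of astrocyte-like cells, with 74.8, 35.4 and 77.2 CPM by library, so that the order of the 2 differed between libraries. By contrast endothelial-like cells had 3.28 CPM of *Gabrb1* on 6 UMIs.

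The *Npy* and *Sst* cluster, 321 cells (122, 95 and 104 by library), held the highest levels of *Slc12a5*, *Gabra3* and *Gabra5* among the 20 clusters described, with the libraries summed. *Slc12a5* was at 76.7 CPM (61.8 to 94.2, 91 UMIs), with 70.0, 88.5 and 71.8 CPM by library, and exceeded typical neuronal cells by a log2 ratio of 2.76, 2.80 and 2.08. *Gabra3* was at 46.4 CPM (34.9 to 60.4, 55 UMIs), above typical cells by 3.08, 2.80 and 2.60. *Gabra5* was at 81.8 CPM (66.3 to 99.8, 97 UMIs), above typical cells by 1.14, 1.10 and 1.01. *Gabra2* was at 49.8 CPM there (37.9 to 64.2, an interval that overlaps those of other clusters), with 38.6, 30.3 and 82.5 CPM by library, and in the heterozygous library it was below astrocyte-like cells at 42.3 CPM. *Gabrb2* had 6 UMIs in the cluster. The other inhibitory neuron-like cluster, led by *Prokr2* and *Htr3a*, had 2.77 CPM of *Slc12a5* (4 UMIs, 712 cells), below the interval of the *Npy* and *Sst* cluster. An unnamed cluster led by *Gsx2* and cell cycle genes, which also held 5 markers of inhibitory neurons, had 3.29 CPM (4 UMIs, 347 cells).

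**Figure D3:**
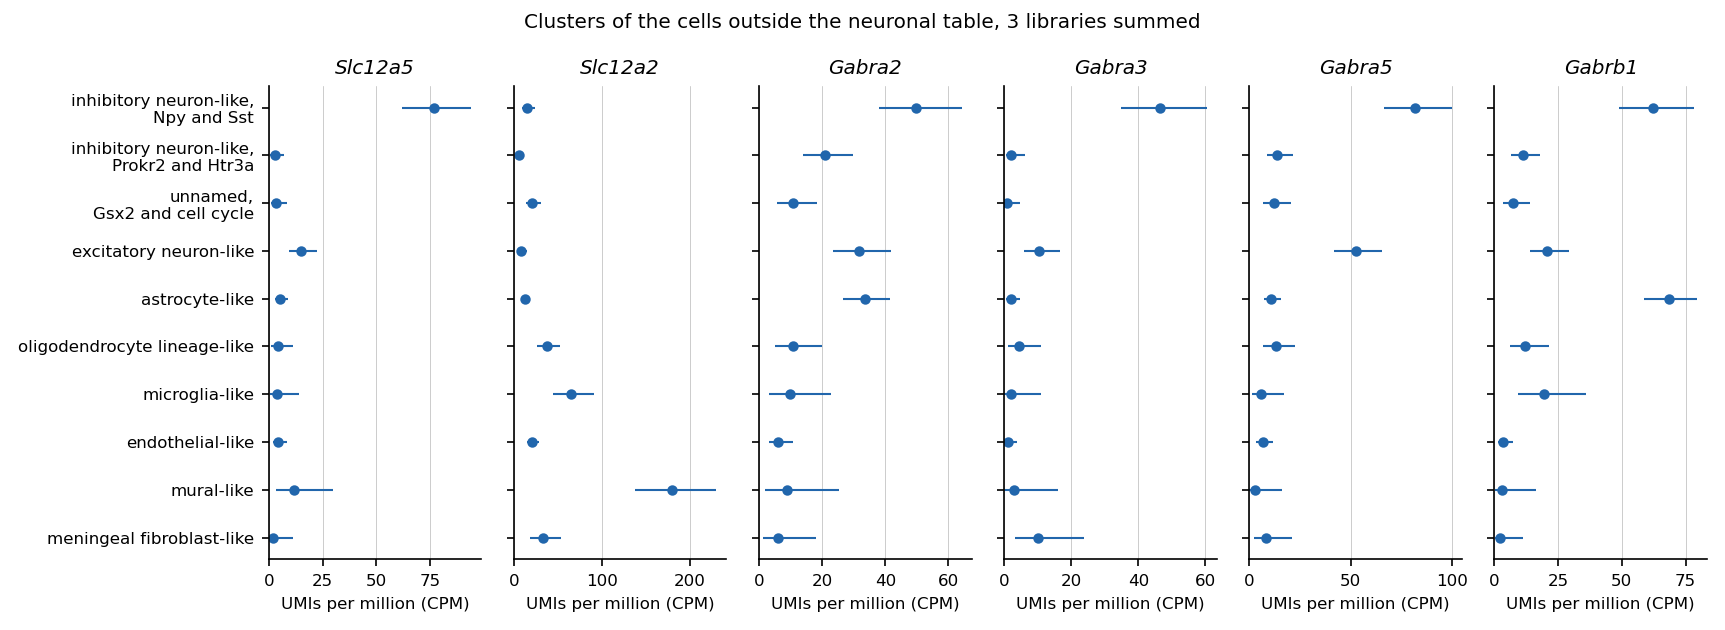
Level of 6 genes in CPM (linear axes that differ between genes) by cluster or class of the cells outside the neuronal table, 3 libraries summed, with exact 95% counting intervals. *Slc12a2* peaks in mural-like cells (180 CPM), *Gabrb1* is high in astrocyte-like cells (68.4 CPM) and in the *Npy* and *Sst* cluster (62.4 CPM), and *Slc12a5*, *Gabra3* and *Gabra5* peak in the *Npy* and *Sst* cluster (76.7, 46.4 and 81.8 CPM).

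The cotransporter ratio differed widely between these clusters. It was 5.06 (3.03 to 8.91) in the *Npy* and *Sst* cluster, from 29 against 8, 35 against 4 and 27 against 6 UMIs by library. In the *Prokr2* and *Htr3a* cluster it was 0.444 (0.100 to 1.59), and in the *Gsx2* cluster 0.16 (0.0405 to 0.463), where all 4 *Slc12a5* and 25 *Slc12a2* UMIs came from the wild-type library. The interval of the *Npy* and *Sst* cluster did not overlap either of them. Excitatory neuron-like cells outside the table had 1.77 (0.859 to 3.80), from 4 against 0, 16 against 12 and 3 against 1 UMIs by library, so that the heterozygous library gave most of them. Astrocyte-like cells had 0.419, endothelial-like cells 0.211, oligodendrocyte lineage-like cells 0.114, mural-like cells 0.0645 and microglia-like cells 0.0606. In empty droplets the ratio was 1.62, 1.77 and 1.92, near that of excitatory neuron-like cells, with *Slc12a5* at 9.08, 8.92 and 10.4 CPM. *Slc12a5* was below these levels in the *Prokr2* and *Gsx2* clusters and in astrocyte-like (5.17 CPM) and endothelial-like cells (4.37 CPM). It was also below them in oligodendrocyte lineage-like (4 UMIs) and microglia-like cells (2 UMIs). Ratios there are not read as a balance of transporters in the cells. The intervals of typical cells in all 3 libraries overlapped that of the *Npy* and *Sst* cluster.

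**Figure D4:**
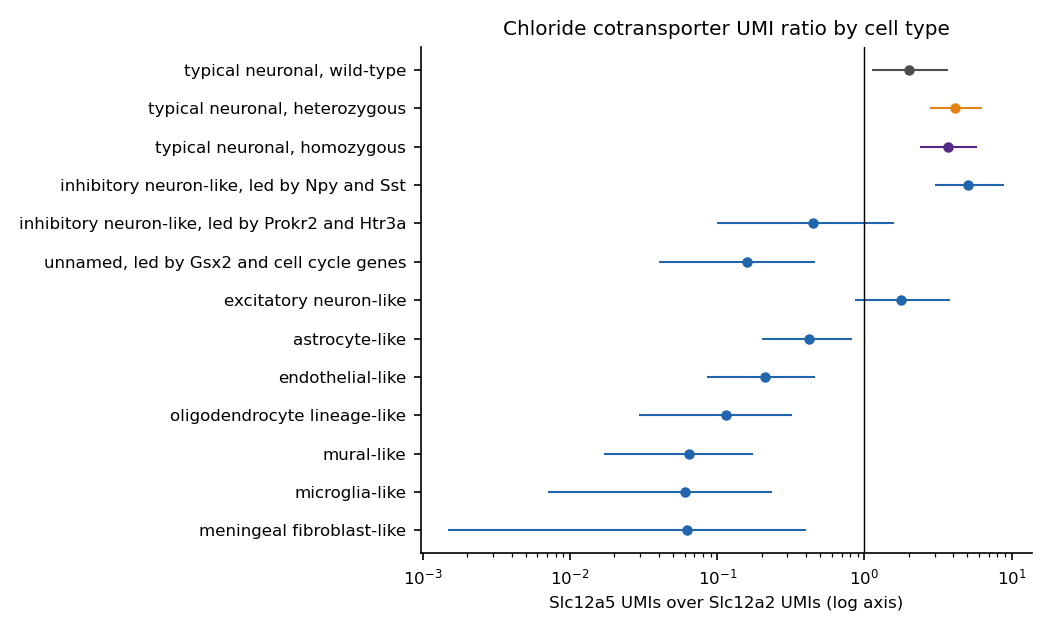
Ratio of *Slc12a5* to *Slc12a2* UMIs (log axis) in typical cells of each library and in clusters or classes of the cells outside the neuronal table, with exact 95% counting intervals and a line at 1. The ratio is 5.06 in the *Npy* and *Sst* cluster, 2.0 to 4.13 in typical cells, 1.77 in excitatory neuron-like cells and at or below 0.444 in the *Prokr2* and *Gsx2* clusters and in glial and vascular classes.

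The other genes of the pathway were counted by the same 1.5-fold threshold in typical cells. Of all genes at that level 7.73% were past it for heterozygous and 7.34% for homozygous over wild-type. Beside these shares, 0 or 1 gene does not set a list apart. In the inhibitory postsynapse and trafficking list, 15 of 20 genes reached the level, led by *Gabarap*, which encodes a receptor-associated trafficking protein, at 566 CPM. None was past 1.5-fold in the heterozygous library, and 1 was in the homozygous library, *Gphn*, which encodes the scaffold gephyrin, at 0.60 after 0.35 in the heterozygous. Of the other cation-chloride cotransporters and their kinases 6 of 16 reached the level and 0 were past 1.5-fold in either mutant library, and the most abundant was *Neto2*, which encodes an auxiliary protein of kainate receptors that also binds KCC2, at 34.3 CPM. The same was true of 3 of 5 genes for GABA-B receptors, led by *Gabbr1* at 105 CPM.

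In the list of GABA synthesis, release, uptake and breakdown 7 of 8 genes reached the level. In each mutant library 1 was past 1.5-fold, against 7.73 and 7.34% of all genes. This was *Gad2*, lower in both, by −0.72 and −0.77 on the log2 scale, on 68, 117 and 66 UMIs. *Gad2* was at 34.4, 18.3 and 20.9 CPM in empty droplets, above its level in typical cells of every library, and also lower there in the mutants. The most abundant of the list was *Slc6a11*, the GABA transporter GAT3, at 87.7 CPM in wild-type.

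Genes with the pattern most like each member were found by Pearson correlation of log2(CPM + 10) over the 9 combinations of library and cell group, as a description. These points share libraries and their free RNA. For *Slc12a2* they were *Sema6d*, *Cldn5* and *Rpn2* (r = 0.99 each), for *Gabra2* *Rgs20*, *Actr6* and *Avpi1* (0.98, 0.97 and 0.94), and for *Gabra5* *Snf8*, *Pitpnm1* and *Sh3gl3* (0.96, 0.95 and 0.95). For *Slc12a5* they were *Car11*, *Inpp5f* and *Tmem158* (0.93, 0.90 and 0.89), for *Gabra3* *Cdc34*, *Rapgef4* and *Mpv17l2* (0.96, 0.95 and 0.95) and for *Gabrb1* *Gripap1*, *Faf1* and *Emc10* (0.98, 0.97 and 0.97). No such genes are given for *Gabrb2*, which had 6 UMIs or fewer in every group.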

How the data were processed

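Per the labels and methods, the authors ran Cell Ranger 2.0.1 (mm10). The deposited counts are raw UMIs per gene, given for every barcode and for 17396 filtered cells, which the authors had selected by UMIs, genes and mitochondrial share. A further table of neuronal cells, deposited on a natural log scale (per 10000 UMIs, 1 added), supplied only the list of cells and genes. Genes and lists were chosen with earlier results of these data known. UMIs were summed per library and cell group and divided by the group total. Sums carry exact Poisson 95% intervals and ratios exact conditional binomial (Clopper-Pearson) intervals. Past 1.5-fold was counted at a mean of at least 10 CPM, as no test between genotypes is possible. The paper's test of cells was not repeated. Cells outside the neuronal table were clustered (scanpy 1.11.5, 2000 variable genes, 30 principal components, 15 neighbors, Leiden resolution 1). A cluster was named from 3 or more listed markers unless 3 of its 10 leading genes marked another type or the cell cycle, a limit set after its genes were seen. No doublet caller was run. From each list the most abundant gene in wild-type and genes past the threshold the same way in both mutants (*Gad2* alone) were named, with *Gphn* and the other subunits of astrocyte-like cells added after their values were seen. The list of other GABA-A receptor subunits is not reported here. Alternatives were edgeR 4.0.16 TMM factors, DESeq2 1.42.0 size factors, UMIs per cell, averages of UMIs per 10000 in single cells, thinning to 1000 UMIs, empty-droplet subtraction, other level minimums, leaving out the 5% of cells richest in UMIs, inclusion of atypical cells, and leaving out cells with marker UMIs. The steps were tested on simulated data.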

Additional observations from a re-analysis of the deposited data

How the results depend on the processing

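Between genotypes no paired analysis was possible because each has 1 library, and for the same reason no library could be left out there. Cell groups were compared within each of the 3 libraries. The number of members past 1.5-fold in typical cells, 1 for heterozygous over wild-type, was 0 with raw UMIs per cell, with the mean of UMIs per 10000, with the empty-droplet profile subtracted and without the 5% of cells with the most UMIs, and 3 with any level above 0. For homozygous over wild-type, 2 became 0 with raw UMIs per cell and 1 after thinning, without cells holding a microglial, vascular, meningeal or blood marker UMI (chosen after seeing the data) or at a minimum of 20 CPM. For homozygous over heterozygous, 0 became 2 with any level above 0. For cells outside the neuronal table over typical cells, the wild-type count of 3 became 1 at 20 CPM, and the heterozygous count of 0 became 1 with TMM factors, DESeq2 size factors, thinning or subtraction, 2 with any level above 0 and 3 with raw UMIs. For atypical over typical cells the wild-type count of 2 became 0 at 20 CPM, the heterozygous count of 2 became 1 at 20 CPM and 6 with any level above 0, and the homozygous count of 2 became 4 with any level above 0. The homozygous over wild-type contrast of the cotransporter ratio, 0.88, was −0.26 without the cells with those markers. The cause was not tested. No ratio past 1.5-fold at 10 CPM or more changed sign under these settings, and at Leiden resolution 0.5 all 9 cluster levels stayed inside their intervals. Removal of every cell with any non-neuronal marker UMI left 0, 3 and 1 typical cells and gave no value.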

Other observations

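Typical cells with a UMI of *Bcl11b* or *Fezf2*, factors of deep-layer neurons, were set against the remaining typical cells of the same library. *Gabra2* in the wild-type library was lower in them by −1.57 on the log2 scale (−3.25 to −0.25, on 5 against 53 UMIs), and its ratio had an interval that included 0 in the heterozygous (−0.10, −0.59 to 0.36, 47 against 208 UMIs) and homozygous library (−0.07, −0.72 to 0.52, 28 against 132 UMIs). The intervals of the other members' ratios in the 3 libraries included 0.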
